A study of Mus musculus with 6 samples.

Results

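Macrophages sorted from the omentum of mice 24 h after the intraperitoneal injection of ID8 cells were compared with macrophages sorted from the omentum of naive mice. The genes followed were those with an FPKM (fragments per kilobase of transcript, scaled to the depth of the library) of 10 or more in 1 or both libraries. There were 7128 such genes among the 23946 of the deposited table, and the 2 libraries were among 6 of the series. Cd74, the invariant chain of MHC class II, was left out because it was listed at 0 in OM 24 h and at 26905 FPKM in OM naive. ID8 cells are an ovarian carcinoma line that arose from C57BL/6 mouse ovarian epithelium. All mice were C57BL/6 females of 6 to 8 weeks, and 9 mice were handled as 3 groups of 3. Tissue was dissociated to single cells and sorted as CD45+CD11b+F4/80+, and the cells of 3 omenta were pooled for each library. The other libraries came from the omentum at 7 d and from mesenteric adipose tissue (MY) at the same 3 times. The label of the control is naive, while the study's methods describe control mice given PBS in each experiment, and which of these the OM naive mice were is not settled here. If they had no injection, the effect of ID8 cells and the effect of an injection cannot be told apart. With 1 library per condition no value had a replicate check, and each difference describes 2 pooled libraries.

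The omentum is a sheet of visceral fat that carries milky spots, clusters of macrophages and lymphocytes beneath a mesothelial covering, through which cells and fluid of the peritoneal cavity are filtered. It is a preferred site of seeding for ovarian carcinoma. Its macrophages include resident cells marked by genes such as Lyve1, Timd4 and Cd163 and cells derived from blood monocytes. Macrophages take up debris and lipid through scavenger receptors, digest them in lysosomes, and call in other leukocytes with chemokines.

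Differences were taken as log2(FPKM + 1) in OM 24 h minus log2(FPKM + 1) in OM naive, a scale that understates the change of low genes. A gene was said to rise or fall when this difference was at least 1, which is 2-fold on that scale. Of the 7128 genes, 901 rose (12.6%) and 496 fell (6.96%). These 19.6% of genes are the background against which each group of genes below is read. The median difference was 0.02, with quartiles of -0.39 and 0.48. At least 4-fold, 292 genes rose and 134 fell. A total of 753 genes passed the minimum of 10 FPKM through OM 24 h only, and 471 of these rose. Another 702 passed through OM naive only, and 246 of these fell. Among the 5673 genes at 10 FPKM or more in both libraries, 430 rose (7.58%) and 250 fell (4.41%). The lowest genes kept were close to those left out: Ulk2 was kept at 9.14 and 10.01 FPKM in OM naive and OM 24 h, and Tti1 was left out at 8.35 and 9.99998 FPKM.

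The FPKM of all genes summed to 620700 in OM naive and 713863 in OM 24 h. The 50 highest genes held 27.7% and 31.2% of these sums. By the steps between the lowest FPKM values of 308 genes, OM 24 h was about 1.17 times as deep as OM naive, but the reads behind each value are not given. The sum of FPKM bears on the balance of directions. Rises made up 64.5% of the genes past 2-fold in the values as deposited, and 50.4% (721 rises and 710 falls) after each library was rescaled to a sum of 1000000, which moved all genes by a log2 difference of -0.20. With Cd74 left out of that sum the share was 45.0% (679 rises and 829 falls). Of 192 genes past 2-fold under the rule for named genes, which mostly picks large differences, 4 were no longer past it after rescaling to a sum of 1000000 with Cd74 included. None changed sign.

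**Figure D1:**
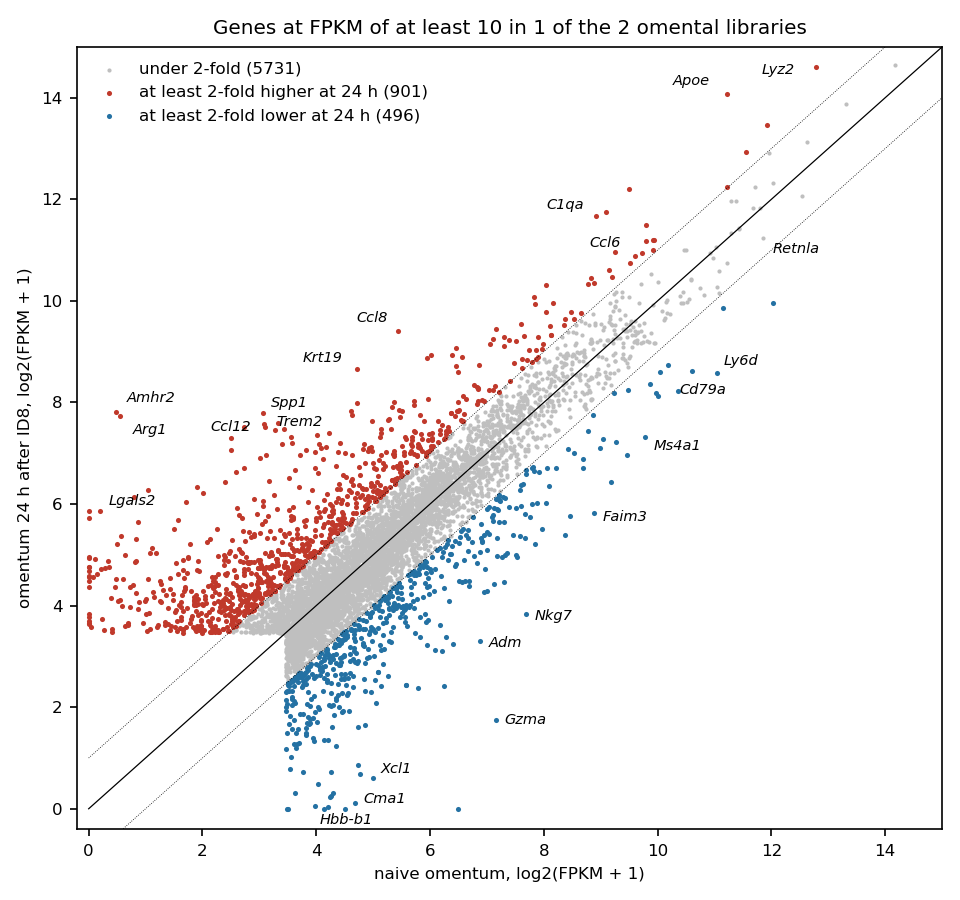
FPKM of each of the 7128 genes in OM naive (horizontal axis) and OM 24 h (vertical axis), both as log2(FPKM + 1), 1 point per gene with some named genes labelled. The solid line marks equal values and the dotted lines 2-fold differences, and 901 genes lie above the upper line and 496 below the lower one.

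The genes of the sort were present in both libraries. Ptprc, which encodes CD45, stood at 182 FPKM in OM naive and 106 FPKM in OM 24 h. Itgam, which encodes CD11b, stood at 91.2 and 151 FPKM, and neither gene passed 2-fold. Emr1, which encodes F4/80, rose from 27.4 to 135 FPKM, a log2 difference of 2.26. OM 24 h was thus the library with more F4/80 message and less CD45 message.

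Markers of other cell types moved between the libraries, and most lymphoid markers fell. All 10 B cell markers that passed the minimum fell, with a median difference of -2.10, and the summed level of the 13 markers measured went from 4965 to 1064 FPKM. Cd79a, a chain of the B cell receptor complex, fell from 1551 to 391.9 FPKM, and Faim3, the receptor for IgM, from 474 to 55.7 FPKM. The 6 T cell markers that passed did so through OM naive only and fell (median -2.19), with the summed level going from 198 to 39.4 FPKM. Cd3e, of the T cell receptor complex, fell from 28.003 to 3.98 FPKM and the kinase Lck from 46.6 to 4.39 FPKM. Of 9 natural killer cell markers, 7 passed through OM naive only, and 8 fell. Their median was -3.85, from -4.61 with a pseudocount of 0.1 to -2.16 with one of 5, and their summed level went from 543 to 41.04 FPKM. Gzma, a granule protease, stood at 142 FPKM in OM naive and 2.37 FPKM in OM 24 h (-5.41), and the receptor Ncr1 at 26.2 and 0.612 FPKM. Other cytotoxic granule genes went the same way, with Prf1 (perforin) at 25.6 and 0.807 FPKM, Gzmb at 17.4 and 0.01996 FPKM and Nkg7 at 205 and 13.3 FPKM. Klrk1, an activating receptor, was the exception at 15.6 and 7.77 FPKM (-0.92), and passed 2-fold after rescaling to equal sums.

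The remaining lists of other cells were smaller. Of 6 plasma cell markers 4 fell and 1 rose (median -1.73, summed level 1179 to 549 FPKM), with Igj, the immunoglobulin joining chain, at 413 and 104 FPKM and the syndecan Sdc1 up from 13.02 to 32.8 FPKM. Of 4 mast cell markers past the minimum 3 fell (summed level 78.9 to 20.9 FPKM), including the chymase Cma1 from 24.6 to 0.0838 FPKM and the tryptase Tpsb2 from 17.9 to 0.169 FPKM, and Cpa3, Tpsab1, Ms4a2 and Mrgprb1 of this list were at 0 in OM 24 h. The hemoglobin genes Hba-a2 and Hbb-b1 fell from 18.6 to 0.248 and from 14.8 to 0.0437 FPKM. Of 9 dendritic cell markers 4 fell and none rose (median -0.92, summed level 1011 to 711 FPKM), among them Cd209a at 264 and 104 FPKM and the cytokine receptor Flt3 at 24.6 and 10.5 FPKM. Fibroblast markers were close to the middle of all genes or lower, with 2 of 6 falling (Fbln1 and Mfap5, median -0.65, summed level 379.7 to 240.1 FPKM), and the collagen gene Col3a1 stood at 80.5 and 62.8 FPKM. Pecam1 fell and Esam rose among the 12 endothelial markers, of which the others were under 10 FPKM in both libraries and Tek, Cldn5 and Emcn were at 0 in OM 24 h, and Alox15 rose and Il5ra fell among 8 eosinophil markers. Adipocyte markers had 1 rise (Lpl) and 2 falls (Cfd and Fabp4) among 4, and Pf4, at 167 and 601 FPKM, was the 1 platelet marker past the minimum. In sorted pools, fewer cells of a type and less RNA per cell cannot be told apart.

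Neutrophil and mesothelial markers went the other way. Of 12 neutrophil markers 10 rose and 2 fell (median 1.28), and the summed level of the 15 measured went from 7765 to 18052 FPKM. After rescaling to equal sums 7 rose, without S100a9, Retnlg and Mmp8, and the median was 1.08. S100a8, a subunit of calprotectin, rose from 3020.2 to 7826 FPKM, and the receptor Csf3r from 6.21 to 24.1 FPKM. The 2 that fell were genes of early granules, Mpo from 83.96 to 8.49 FPKM and Elane from 118 to 39.4 FPKM. The mesothelium is the covering layer of the omentum and does not carry CD45. Of 9 mesothelial markers 8 rose and none fell (median 3.05), but 6 of the 9 passed the minimum through OM 24 h only. The 3 at 10 FPKM or more in both libraries rose (median 3.13). The summed level of the 12 measured went from 118 to 1063 FPKM. Upk3b, an uroplakin, stood at 23.7 and 215 FPKM, the keratin Krt19 at 25.4 and 406 FPKM, and Msln (mesothelin) at 5.27 and 53.8 FPKM. Wt1, a transcription factor of mesothelium and gonad, rose from 2.16 to 25.2 FPKM. Lrrn4, at 6.44 and 12.6 FPKM, did not pass 2-fold.

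The list of ovarian surface epithelium and gonad shared 4 of its genes past the minimum with the mesothelial list, namely Krt8, Krt18, Krt19 and Wt1. Of its 6 genes past the minimum 5 rose and Epcam, the epithelial adhesion molecule, fell from 13.04 to 5.45 FPKM (median 3.42). Of the 6, 3 passed through OM 24 h only and 1 through OM naive only, and the 2 at 10 FPKM or more in both rose. Amhr2, the receptor for anti-Mullerian hormone, had the largest difference of all genes above 0 in both libraries. It stood at 0.397 FPKM in OM naive, 223 FPKM in OM 24 h and 315 FPKM in OM 7 d, and at or under 0.114 FPKM in MY naive and MY 24 h. Below the minimum, the gonadal transcription factor Nr5a1 was at 0.0135 and 8.85 FPKM, and Pax8, Lhx9 and Foxl2 were listed at 0 in OM naive and at 0.173, 0.0777 and 0.1303 FPKM in OM 24 h. The part of these lymphoid, neutrophil, mesothelial and epithelial changes in the differences described next was not tested.

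**Figure D2:**
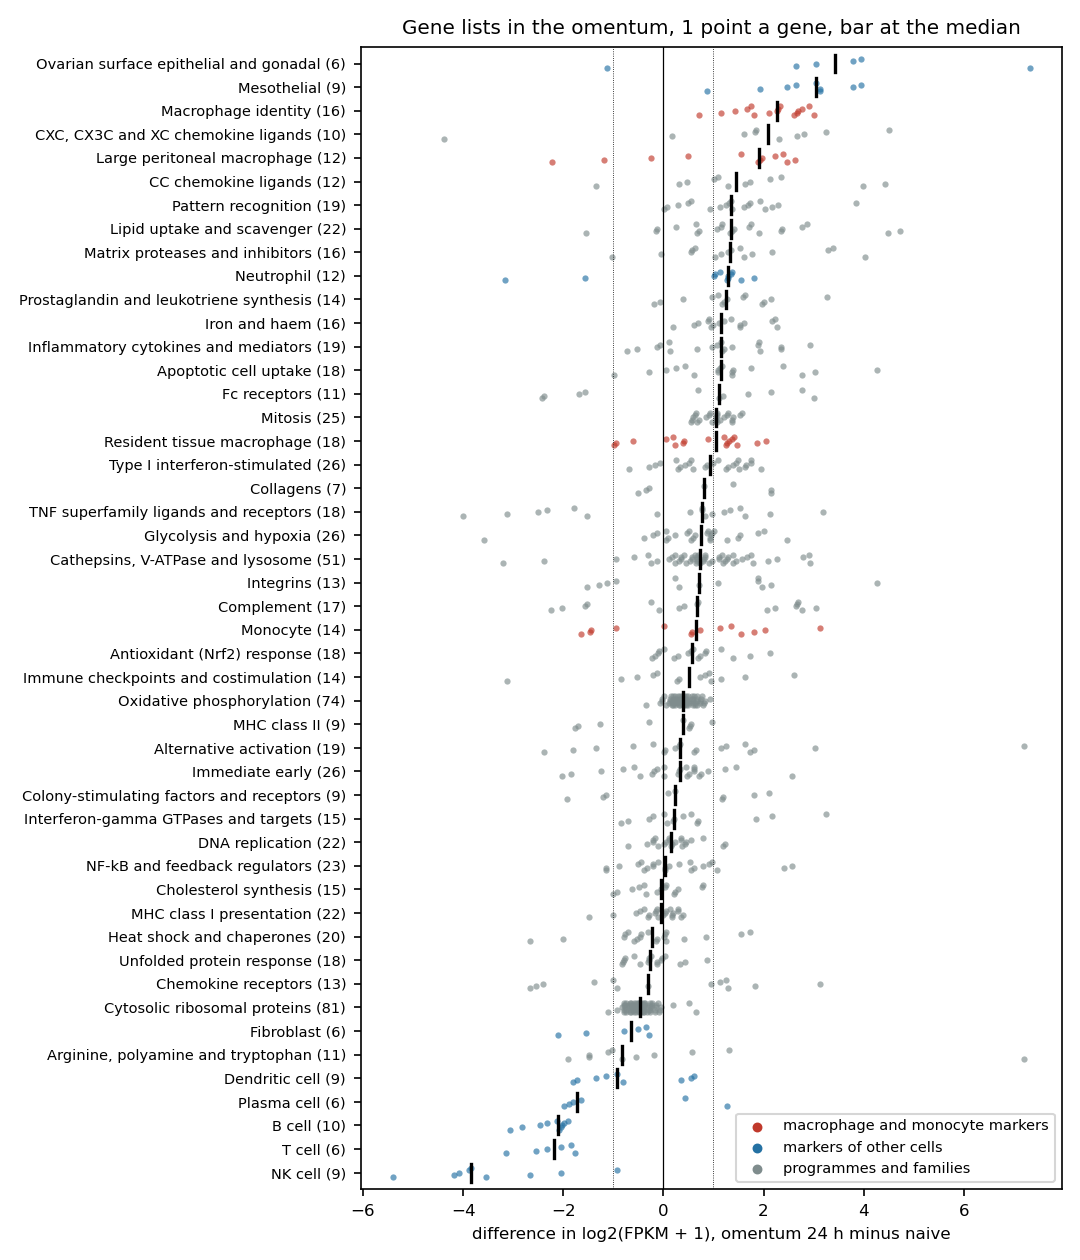
Log2 difference, OM 24 h minus OM naive, of each gene past the minimum in each list with 6 or more such genes (their number in brackets), with the list median as a bar and colour for the kind of list. The dotted lines mark 2-fold, and the medians run from -3.85 for NK cell markers to 3.42 for the ovarian and gonadal list, beside 0.02 for all 7128 genes.

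Genes of macrophage identity rose together. All 16 passed the minimum, 15 rose and none fell, with a median of 2.27 and a summed level of 9729 FPKM in OM naive and 40000.2 FPKM in OM 24 h. Lyz2, which encodes lysozyme, gained the most FPKM of any gene and went from 7054 to 24779.6 FPKM. C1qa, C1qb and C1qc, the chains of the first complement component, rose from 484, 724 and 543 FPKM to 3282, 4692 and 3442 FPKM. The growth factor receptor Csf1r, on which macrophages depend, rose from 132 to 569.8 FPKM. This rise stood beside the fall of the lymphoid lists. The median of the list was exceeded by 219 of the 7128 genes (3.07%), which included Arg1, Trem2, Spp1, Ccl8 and Ccl12.

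Receptors through which macrophages sense and take up material made up several of the groups with the most rises. Among pattern recognition receptors 13 of 19 rose and none fell (median 1.35), and 9 of the 15 at 10 FPKM or more in both rose. The rises were led by Clec4n, a lectin that binds fungal mannans, at 7.72 and 124 FPKM. Cd14, the lipopolysaccharide co-receptor, followed at 141 and 693 FPKM. Tlr4 and Tlr7 did not pass 2-fold, at 10.1 and 20.1 FPKM and at 14.1 and 14.3 FPKM. The Fc receptors went both ways. Of 11 genes 6 rose, with Fcgr1 at 7.38 and 66.01 FPKM, Fcgr4 at 16.3 and 118 FPKM and Fcgr3 at 137 and 608 FPKM, while the 4 that fell (Fcrl5, Fcer2a, Fcrl1 and Fcrla) are genes of B cells. Complement genes had 7 rises and 4 falls among 17 (median 0.67). The anaphylatoxin receptor C3ar1 rose from 11.4 to 101 FPKM, and the inhibitor Serping1 fell from 59.8 to 11.8 FPKM.

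Genes for the uptake of dying cells had 12 rises and no falls among 18 (median 1.15), and 8 of the 14 at 10 FPKM or more in both rose (median 1.11). Rescaling to equal sums left 8 of the 18 as rises and made 1, Timd4, a fall (median 0.96). Itgb5, an integrin subunit that bridges to apoptotic cells, rose from 9.07 to 192 FPKM, a log2 difference of 4.26. The receptor kinase Axl rose from 37.4 to 201 FPKM and its ligand Gas6 from 26.3 to 69.9 FPKM. The related kinase Mertk rose from 3.34 to 13.6 FPKM.

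Lipid handling and scavenging genes held several of the largest differences. Of 22 such genes 15 rose and 1 fell, with a median of 1.35. Through OM 24 h only 6 of them passed the minimum, Spp1 and Trem2 among these. With 10 FPKM required in both libraries 10 of 16 rose (median 1.16). Spp1, which encodes osteopontin, stood at 7.35 FPKM in OM naive and 219.6 FPKM in OM 24 h (4.72). Trem2, a lipid-sensing receptor of macrophages (mm9 chromosome 17, 48485726 to 48493472, plus strand), stood at 7.498 and 191 FPKM (4.49). Both were lower again at 7 d, at 41.9 and 18.9 FPKM. Apoe, the apolipoprotein that carries cholesterol out of macrophages, rose from 2379.9 to 17332 FPKM, and the sterol-sensing receptor Nr1h3 from 10.5 to 58.3 FPKM. The scavenger receptors Stab1 and Msr1 reached 38.1 and 143 FPKM from 4.73 and 27.5 FPKM. Fabp4, a fatty acid-binding protein of macrophages and adipocytes, fell from 31.6 to 10.2 FPKM. Genes of cholesterol synthesis showed no such movement, with no rise among 15 (median -0.047).

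Lysosomal genes moved in the same direction as the scavenger genes. Of 51 genes past the minimum 19 rose and 2 fell (median 0.74), and 18 of 47 rose when 10 FPKM was required in both libraries. The protease Lgmn (legumain) rose from 60.5 to 467 FPKM, the cathepsin genes Ctsl and Ctsd from 20.3 and 261 to 146 and 1264 FPKM, and Cd63, a membrane protein of late endosomes, from 64.04 to 489.8 FPKM. The 2 falls, Ctsw from 28.1 to 2.16 FPKM and Ctsg from 11.6 to 1.41 FPKM, are cathepsins of cytotoxic lymphocytes and of granulocytes.

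The promoters of these genes were searched for TCACGTG on either strand, letters bound by the TFE family that switches on lysosomal genes, in windows of 250 bases before to 50 after the gene start (RefSeq, GRCm38.p6). The motif was held by 4.29% of 27025 genes with a window and by 7.50% of the 5493 genes followed here that had one. Of 38 lysosomal genes with a window 11 held it (28.9%), 5 of the 16 that rose and 6 of the 22 that did not. The lysosomal genes that rose and those that did not thus held the letters in similar shares. The windows of a large gain, Ctsd (minus strand, chr7:142387778-142388077), and of the largest lysosomal rise, Lgmn (minus strand, chr12:102439043-102439342, the second of its 2 windows), are shown with the motif in capitals. In Ctsd the first match starts 245 bases before the gene start and the last 98 bases before it, the last overlapping a match on the other strand, and in Lgmn the single match starts 50 bases before it.
Ctsd: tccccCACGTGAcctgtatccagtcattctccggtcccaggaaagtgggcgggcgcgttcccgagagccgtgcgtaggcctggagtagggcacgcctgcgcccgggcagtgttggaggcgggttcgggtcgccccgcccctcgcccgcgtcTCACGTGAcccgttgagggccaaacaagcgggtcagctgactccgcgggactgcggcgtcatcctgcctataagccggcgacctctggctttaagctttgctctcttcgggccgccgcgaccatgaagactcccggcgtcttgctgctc
Lgmn: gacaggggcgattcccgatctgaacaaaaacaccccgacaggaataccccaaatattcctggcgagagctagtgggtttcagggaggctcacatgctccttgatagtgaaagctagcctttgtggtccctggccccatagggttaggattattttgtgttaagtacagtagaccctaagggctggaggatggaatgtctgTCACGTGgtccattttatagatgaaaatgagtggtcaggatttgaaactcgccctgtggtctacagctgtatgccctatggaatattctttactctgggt

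Iron, redox and lipid mediator genes were also among the rises. Of 16 iron and heme genes 9 rose and none fell (median 1.16), among them Hmox1, which opens the heme ring, from 29.5 to 137 FPKM and the metal transporter Slc11a1 from 43.6 to 209 FPKM. The antioxidant list had 4 rises in 18 (median 0.57), led by Mgst1 at 61.1 and 269 FPKM. Enzymes of prostaglandin and leukotriene synthesis had 10 rises in 14 and no falls (median 1.24). Pla2g7, which degrades platelet-activating factor, rose from 25.4 to 253 FPKM, the prostacyclin synthase Ptgis from 11.02 to 52.4 FPKM and the cyclooxygenase Ptgs1 from 22.1 to 92.1 FPKM. The inducible cyclooxygenase Ptgs2 had a log2 difference of 0.97, just under the threshold, at 7.998 and 16.7 FPKM.

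In the values as deposited, no marker of resident tissue macrophages fell past 2-fold at 24 h. All 18 were past the minimum, and 9 rose (median 1.05). The C-type lectin gene Cd209f rose from 13.1 to 50.2 FPKM, the carbonyl reductase Cbr2 from 112 to 315 FPKM, and the folate receptor Folr2 from 81.6 to 220.0 FPKM. Some defining genes of the class were nearly level and others lower. Lyve1, a hyaluronan receptor, stood at 53.5 and 55.3 FPKM, the hemoglobin scavenger Cd163 at 18.2 and 21.04 FPKM, and the phosphatidylserine receptor Timd4 at 27.8 and 13.5 FPKM (-0.995, just short of 2-fold). Cd209d, another C-type lectin gene, was at 13.2 and 6.36 FPKM, and it and Timd4 passed 2-fold downward after rescaling to equal sums. Every value of the list lay under the macrophage identity median of 2.27. In OM 7 d most of the same genes were below the naive level, with a median of -2.09 against the same naive library. Lyve1, Cd163 and Timd4 stood at 5.96, 3.13 and 5.304 FPKM. The exceptions were Gas6, at 26.3 FPKM in OM naive and 138.6 FPKM in OM 7 d (2.36), and Igf1 (0.33).

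The other macrophage list and the monocyte list were mixed. Of 12 genes of large peritoneal macrophages 8 rose and 2 fell (median 1.91), but 6 of them passed the minimum through OM 24 h only, and the median was 0.49 for the 5 at 10 FPKM or more in both. Gata6, a transcription factor on this list, rose from 2.06 to 15.9 FPKM, and Thbs1 (thrombospondin) from 6.08 to 42.9 FPKM. Gata6 stood at 36.7 FPKM in OM 7 d and at or under 0.298 FPKM in the mesenteric libraries, and which cells carried it was not tested. Of the 20 genes of the list 8 were under the minimum, among them Prg4 at 5.68 and 5.56 FPKM. Bhlhe41 fell from 13.1 to 2.03 FPKM, and the adhesion gene Icam2, shared with endothelium and lymphocytes, from 73.9 to 32.1 FPKM. Monocyte genes had 6 rises and 3 falls in 14 (median 0.66). Cx3cr1, the fractalkine receptor, rose from 15.6 to 144 FPKM and Chil3 from 157 to 555 FPKM. Ly6c2, which marks inflammatory monocytes, was at 164 and 241 FPKM, and Plac8 fell from 1059.9 to 386 FPKM.

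Alternative activation genes did not move as a block. Of 19 genes 7 rose and 3 fell, with a median of 0.33. Arg1, the arginase that consumes arginine (mm9 chromosome 10, 24635014 to 24647276, minus strand), stood at 0.463 FPKM in OM naive, 213 FPKM in OM 24 h and 5.62 FPKM in OM 7 d, and its log2 difference of 7.19 at 24 h was the second largest of the genes above 0 in both libraries. The transglutaminase Tgm2 rose from 15.998 to 137 FPKM and the mannose receptor Mrc1 from 20.8 to 50.5 FPKM. Retnla, the most abundant gene of the list, was lower at 2402 than 3681 FPKM without passing 2-fold (-0.62), and it stood at 311 FPKM in OM 7 d. The falls were Fcer2a, Irf4 and Cd209a, of which Fcer2a is on the Fc receptor list and the other 2 are on the dendritic cell list. The list of arginine, polyamine and tryptophan enzymes had Arg1 and the polyamine acetylase Sat1 as its 2 rises and 5 falls in 11 (median -0.84). Ass1, which remakes arginine from citrulline, fell from 74.6 to 19.3 FPKM, and the arginine transporter Slc7a1 from 11.1 to 3.35 FPKM.

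**Figure D3:**
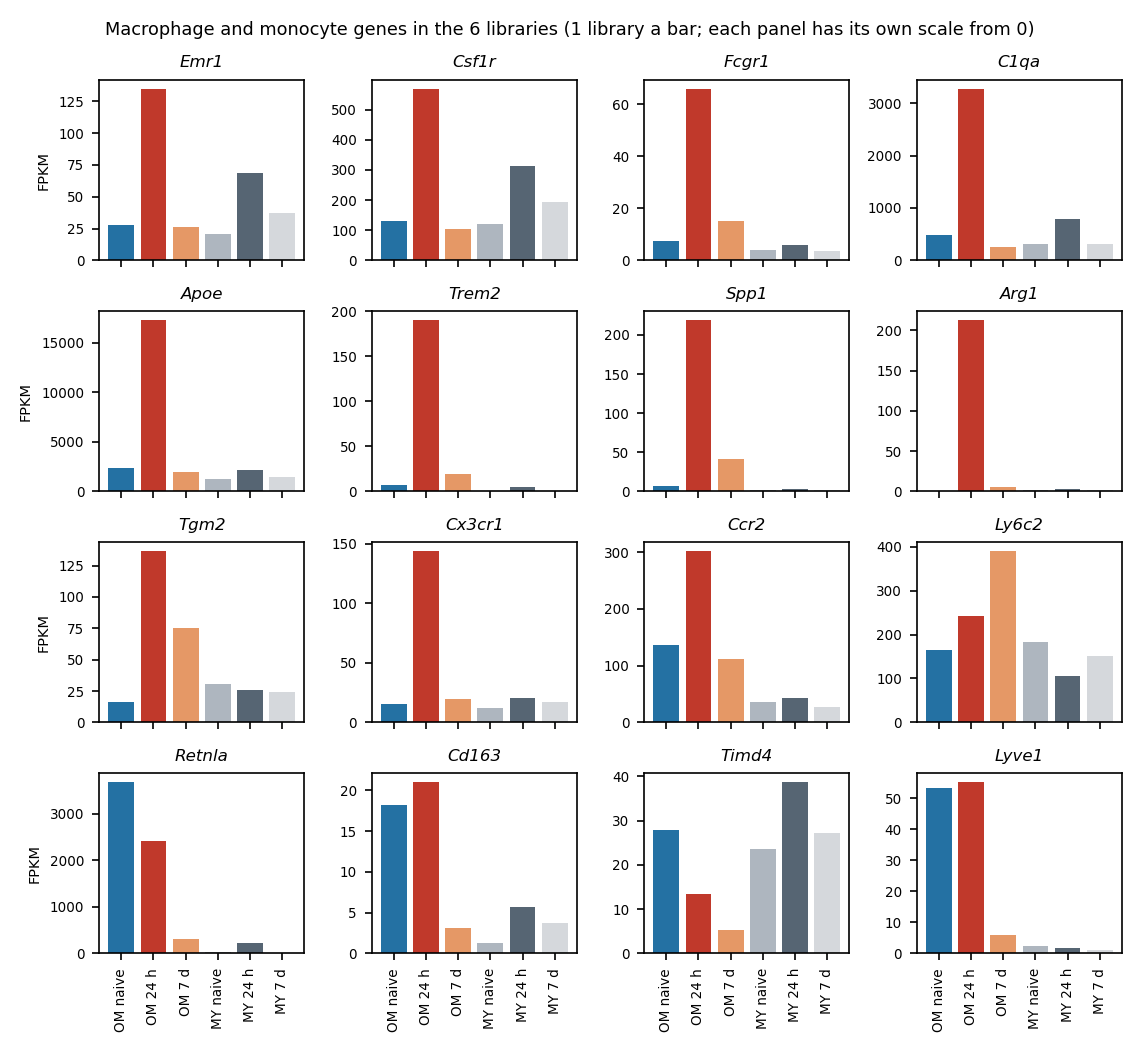
FPKM of macrophage and monocyte genes in each of the 6 libraries, 1 bar per library and 1 panel per gene, each on its own linear axis from 0, for omentum (OM) and mesentery (MY). Arg1 stands at 0.463, 213 and 5.62 FPKM in the omentum, so the high value is that of OM 24 h.

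Most chemokine ligands past the minimum rose, and their receptors did not share this. Of 12 CC ligands past the minimum 9 rose and 1 fell (median 1.46), and with 10 FPKM required in both libraries 8 of 11 rose. The 3 largest rises came from genes that lie close together on chromosome 11 in mm9. Ccl7 (81859214 to 81861027) rose from 23.7 to 125 FPKM, Ccl12 (81915347 to 81916902) from 7.55 to 182 FPKM and Ccl8 (81928687 to 81930301) from 42.2 to 681 FPKM. These ligands attract monocytes, and Ccl2, the main ligand of CCR2, rose from 29.01 to 130.4 FPKM. Ccl6 was the most abundant ligand and rose from 777 to 1901 FPKM (1.29), and it stood at 489 FPKM in OM 7 d. It also rose in the mesentery, from 34.3 FPKM in MY naive to 282 FPKM in MY 24 h (3.00). Its receptor Ccr1 went from 65.7 to 128 FPKM in the omentum, a difference of 0.95 that did not pass 2-fold. Ccl5, made by T and natural killer cells, fell from 345 to 135 FPKM.

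Among the other ligands 8 of 10 rose and 1 fell (median 2.08), and 4 of the 5 at 10 FPKM or more in both rose. Cxcl10, an interferon-induced attractant of T cells, rose from 12.1 to 124 FPKM, Cxcl16, whose membrane form also takes up oxidized lipid, from 30.6 to 199 FPKM, and the neutrophil attractant Cxcl2 from 51.95 to 262 FPKM. A pair of epithelial ligands were low in OM naive: Cxcl17 rose from 0.165 to 25.5 FPKM and Cxcl14 from 1.09 to 13.6 FPKM. Cxcl13, which recruits B cells to milky spots, was nearly level at 107 and 119.8 FPKM, and Xcl1, a natural killer and T cell product, fell from 30.8 to 0.532 FPKM. The receptors divided evenly, with 5 rises and 5 falls in 13 (median -0.32, or 0.95 for the 9 at 10 FPKM or more in both). The rises included Cx3cr1, Ccrl2, Cxcr2 and Ccr2, the last from 137 to 303 FPKM. The falls were Cxcr5, from 122 to 18.3 FPKM, and Ackr2, Cxcr6, Ccr6 and Cxcr3, and Cxcr5 and Ccr6 are receptors of B cells. Rescaling to equal sums gave 4 rises and 6 falls (median -0.52), with Ccr2 no longer a rise and Ccr7 a fall.

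**Figure D4:**
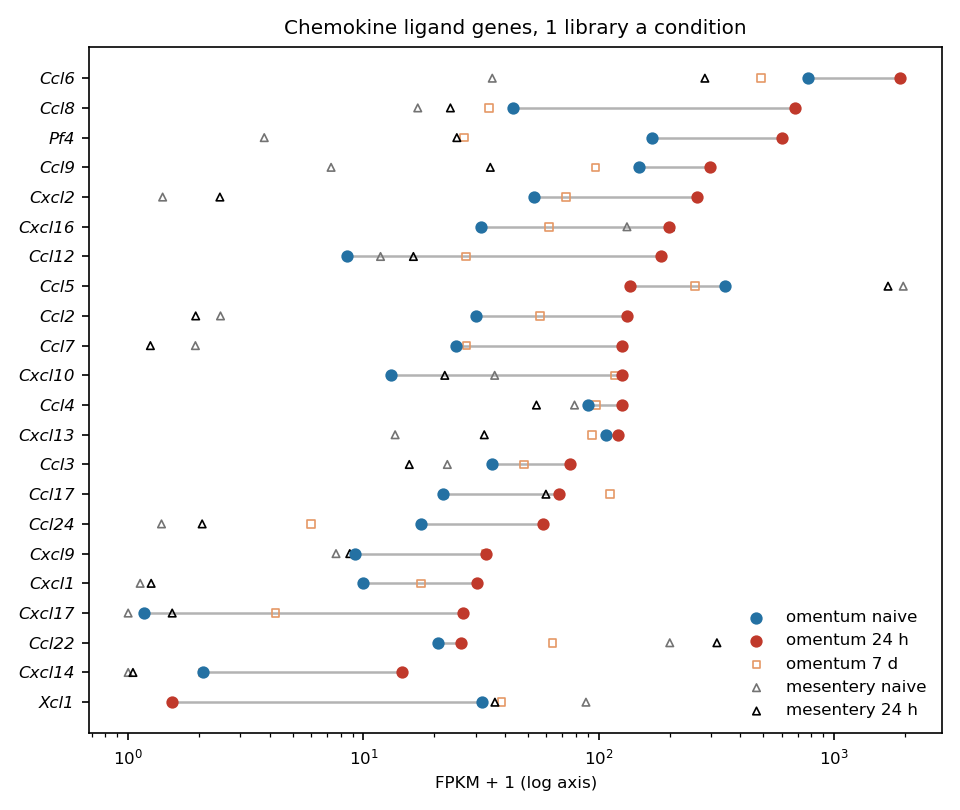
FPKM of the chemokine ligands past the minimum in OM naive and OM 24 h (filled points joined by a line), OM 7 d (squares) and MY naive and MY 24 h (triangles), on a log axis of FPKM + 1. Ccl8 goes from 42.2 to 681 FPKM and Xcl1 from 30.8 to 0.532 FPKM.

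Inflammatory mediators had rises and no falls. Of 19 past the minimum 11 rose and none fell (median 1.15), 6 of them in the 12 at 10 FPKM or more in both. After rescaling to equal sums 9 rose, without Il1b and Il6, and the median was 0.95. Irg1, which makes itaconate, rose from 0.619 to 11.3 FPKM, the interleukin-1 antagonist Il1rn from 10.99 to 60.4 FPKM and oncostatin M (Osm) from 14.2 to 76.2 FPKM. The cytokine genes Il1b, Tnf and Il6 reached 249, 27.1 and 12.03 FPKM from 112, 11.1 and 5.21 FPKM. Il10 and Tgfb1, which restrain inflammation, were at 14.7 and 9.98 FPKM and at 119 and 71.8 FPKM and did not pass 2-fold. NF-kB subunits and feedback genes were centred near 0, with 3 rises and 2 falls in 23 (median 0.035, below 0 after rescaling to equal sums). The survival gene Ier3 rose from 82.3 to 491 FPKM and the subunit gene Nfkb1 fell from 48.9 to 21.6 FPKM. Immediate early genes had 3 rises and 3 falls in 26 (median 0.32), with Fos at 729.8 and 1715 FPKM and Myc at 262 and 64.1 FPKM.

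Interferon-stimulated genes rose in part. Among 26 type I genes 12 rose and none fell (median 0.93), and 7 of the 20 at 10 FPKM or more in both rose. The transcription factor Irf7, which amplifies interferon production, rose from 27.9 to 111 FPKM and the RNA sensor regulator Oasl2 from 11.7 to 41.6 FPKM. Isg15, a ubiquitin-like modifier, rose from 23.4 to 74.1 FPKM, and Ifit1, which binds foreign RNA, from 3.36 to 11.2 FPKM. Irf9, which helps to carry the signal, was at 49.2 and 46.996 FPKM. Genes tied to interferon-gamma had 3 rises in 15 (Cxcl10, Iigp1 and Cxcl9), and their median of 0.21 fell just below 0 after rescaling to equal sums without Cd74.

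The interferon response element was searched as GAAA, any 2 bases and GAAA on either strand in the same promoter windows. It was held by 3.99% of all 27025 genes with a window, by 4.30% of the 5493 followed here, by 6.09% of the 673 among those that rose and by 5% of the 360 that fell. Of 20 type I genes with a window 11 held it (55%), 7 of the 11 that rose and 4 of the 9 that did not. The windows of Isg15 (minus strand, chr4:156200769-156201068) and Ifit1 (plus strand, chr19:34640639-34640938) show its 2 layouts, with matches in capitals. Isg15 has 3 overlapping matches that start 78 to 66 bases before the gene start, and Ifit1 has 2 separate matches on the opposite strand, which start 104 and 85 bases before it.
Isg15: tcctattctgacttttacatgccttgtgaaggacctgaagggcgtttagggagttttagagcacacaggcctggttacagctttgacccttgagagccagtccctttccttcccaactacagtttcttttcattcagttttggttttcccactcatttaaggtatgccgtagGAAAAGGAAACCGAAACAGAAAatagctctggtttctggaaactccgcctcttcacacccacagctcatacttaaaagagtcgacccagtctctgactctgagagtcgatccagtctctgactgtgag
Ifit1: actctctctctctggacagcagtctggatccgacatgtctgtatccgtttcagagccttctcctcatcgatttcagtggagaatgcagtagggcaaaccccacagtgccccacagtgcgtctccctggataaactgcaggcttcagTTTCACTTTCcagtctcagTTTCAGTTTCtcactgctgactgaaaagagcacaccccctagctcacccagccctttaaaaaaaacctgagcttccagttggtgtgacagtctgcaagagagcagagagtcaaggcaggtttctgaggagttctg

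Antigen presentation genes were abundant, and few passed 2-fold. No gene of MHC class II rose and 3 of 9 fell (median 0.39). The classical chains H2-Ab1, H2-Aa and H2-Eb1 stood at 10226, 6291 and 3371 FPKM in OM naive and 15011, 9006 and 4853 FPKM in OM 24 h. The 3 falls were H2-DMb2, H2-Ob and H2-Oa, of which H2-Ob and H2-Oa encode a peptide-loading regulator found mainly in B cells. Of 22 class I genes 1 fell, H2-Q6, and none rose (median -0.052). Checkpoint and costimulatory genes had 3 rises (Lair1, Lilrb4 and Sirpa) and 1 fall, Ctla4 of T cells, in 14 (median 0.52). Cd274, which encodes PD-L1, was at 26.96 and 14.5 FPKM.

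Matrix and adhesion genes had few members past the minimum. Of 16 matrix proteases and inhibitors, from 58 measured, 11 rose and 1 fell (median 1.33). Through OM 24 h only 6 of the 16 passed the minimum, and 5 of the 9 at 10 FPKM or more in both rose (median 1.03). The inhibitor Timp1 rose from 0.788 to 28.3 FPKM, the membrane protease Mmp14 from 7.99 to 86.3 FPKM and Mmp11 from 0.506 to 14.9 FPKM. Of 44 collagen genes 7 passed, and the 3 that rose (Col4a1, Col4a2 and Col6a1) included both main chains of basement membrane collagen (median 0.81, or -0.28 for the 5 at 10 FPKM or more in both). Integrins had 6 rises and 3 falls in 13 (median 0.72, or -0.35 for the 6 at 10 FPKM or more in both), with Itgb5 at the top and Itgb7, a lymphocyte homing subunit, falling from 370.1 to 128 FPKM. TNF family genes had 6 rises and 6 falls in 18 (median 0.77, or -0.27 with a minimum of 1 FPKM in either library). Tnfrsf12a, the receptor for TWEAK, rose from 6.496 to 67.5 FPKM, while Tnfrsf8 (CD30) and the lymphotoxin genes Lta and Ltb fell, the last from 702 to 124 FPKM. Colony-stimulating factors and their receptors had 4 rises and 3 falls in 9, with a median of 0.23 that fell just below 0 after rescaling to equal sums without Cd74.

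Mitotic genes were higher in OM 24 h, many by less than 2-fold. Of 25 mitotic genes 14 rose and none fell (median 1.06), and all 25 were higher in OM 24 h than in OM naive. After rescaling to equal sums 8 of the 25 rose and the median was 0.88. Through OM 24 h only 12 of them passed the minimum, and 7 of the other 13 rose. The cyclin Ccnb1 rose from 6.83 to 21.5 FPKM, the mitotic kinase Plk1 from 9.82 to 26.9 FPKM and the microtubule regulator Stmn1 from 54.5 to 145 FPKM. In the mesentery 23 of the 25 were lower at 24 h than in the naive library (median -0.63), with Ccnb1 at 7.56 and 3.12 FPKM. Of 22 replication genes 2 rose, Tk1 and Gins2, and none fell, with a median of 0.16 that was below 0 after rescaling to equal sums. The clamp gene Pcna stood at 66.9 and 75.2 FPKM.

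Metabolic genes shifted without passing 2-fold in most cases. Of 26 genes of glycolysis and hypoxia 7 rose and 1 fell (median 0.75), and 3 of the 20 at 10 FPKM or more in both rose (median 0.61). The lactate exporter Slc16a3 rose from 17.3 to 72.4 FPKM and the hexokinase Hk3 from 14.8 to 43.7 FPKM, whereas Gapdh went from 612 to 1161 FPKM without passing 2-fold. Adm, which encodes adrenomedullin, went against its list and fell from 117 to 8.87 FPKM. None of 74 oxidative phosphorylation genes passed 2-fold, but 70 of them were above 0 (median 0.39). With the libraries rescaled to equal sums 58 of the 74 were above 0, and the median was 0.19. Cox8a, of the terminal oxidase, went from 573 to 997 FPKM as deposited. Of 81 ribosomal protein genes 78 were below 0 (median -0.48) and 1, Rps4l, fell. Of these, Rps27 and Rpl13 lost the most FPKM, from 2174 to 1140.1 and from 2105 to 1237. No gene of the unfolded protein response list passed 2-fold in 18 (median -0.26). Heat shock genes had 2 rises (Hspb1 and Cryab) and 2 falls (Hspa1a and Hspa1b) in 20 (median -0.23).

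The largest differences of single genes were spread over these themes and others. The 15 largest rises among genes above 0 in both libraries were Amhr2, Arg1, Lgals2, Syngr1, Bok, Tm4sf1, Csdc2, Wnt10a, Me1, Ldhb, Spp1, Arhgdig, Cpe, Wnt6 and Cxcl17. All were at 7.35 FPKM or less in OM naive and at 25.5 FPKM or more in OM 24 h. Lgals2, a galectin, stood at 0.149 and 57.1 FPKM, Ldhb, the heart-type lactate dehydrogenase, at 5.67 and 181 FPKM, and the secreted growth factor gene Wnt6 at 0.267 and 28.5 FPKM. Of the 15, 14 were under 10 FPKM in every mesenteric library. These genes were picked as the largest rises and were also low in OM naive. The matching share of all genes followed is not given here, so the 14 have no background to be read against. In OM 7 d, 12 of the 15 were nearer to their 24 h level than to their naive level, with Lgals2 at 59.8 and Ldhb at 213 FPKM, and Arg1, Spp1 and Cxcl17 were the exceptions. Of the 15 largest falls, 10 were on the natural killer, mast cell or other non-macrophage lists. The 5 others were Xcl1, Tnfrsf8, 1810046K07Rik, Adm and Tcstv3. The share of all genes followed that were on those lists is not given here either. In OM 7 d, 12 of the 15 falls were nearer to the naive level than to the 24 h level, with Gzma at 57.4 and Nkg7 at 138 FPKM, and Tnfrsf8, Adm and Tcstv3 were the exceptions.

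A further 16 genes were at 10 FPKM or more in OM 24 h and listed at 0 in OM naive, where no fold can be given. Of these, 2 were short RNA genes. The highest of the other 14 were Tmem184a at 56.8, Tspan8 at 52.1, Prr15l at 29.9, Etnk2 at 29.6 and Cst12 at 25.99 FPKM. Of the 14, 12 stood at 10 FPKM or more in OM 7 d as well, and none was above 0.59 FPKM in a mesenteric library. No share of other genes is given for comparison. Tspan8 is an epithelial tetraspanin. In the other direction 5 genes were listed at 0 in OM 24 h, 4 of which were short RNA genes (Snord104, Mir1894, Mir3109 and Mir3112), and the fifth was Cpa3 at 10.4 FPKM in OM naive.

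By absolute FPKM the gains included macrophage and ferritin genes, and the losses were of several kinds. After Lyz2 and Apoe, the largest gains were those of Ftl1 (3900.4 to 11241 FPKM), Tmsb4x (18493 to 25646 FPKM), S100a8, H2-Ab1, C1qb and Fth1. The largest losses were those of Ly6d, a B cell surface gene, from 2117 to 379.6 FPKM and of Crip1 from 5958 to 4269 FPKM, followed by the ribosomal RNA gene Rn45s, Retnla, Cd79a, Rps27, Cd79b and Rpl13. Of 196 named genes with a coding transcript in GENCODE M1, 15 shared over 10% of their 75-base windows with another gene, so how their reads were divided is uncertain. They were C2, Cd209f, Flt3l, Ftl1, H2-DMb2, H2-Q6, Hba-a2, Hbb-b1, Hspa1a, Hspa1b, Lilrb4, Oas1g, Rpl13, Rps27 and Tnfsf13.

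The change at 24 h involved more genes in the omentum than in the mesentery. In the mesentery 204 of 6841 genes rose (2.98%) and 123 fell (1.80%), or 4.78% of genes in either direction. The difference between tissues has no replicate and was not tested. Among 6208 genes past the minimum in both tissues, 95 rose in both, which was 10.5% of the omental and 46.6% of the mesenteric rises. They included C1qa, at 315 and 795 FPKM in MY naive and MY 24 h, Cd14, at 7.33 and 34.9 FPKM, and Pla2g7, at 82.4 and 216 FPKM. Ccl6, at 34.3 and 282 FPKM, Fcgr4, Axl and Emr1 were also among them. A total of 37 fell in both (7.46% of the omental and 30.1% of the mesenteric falls), among them Xcl1, Ncr1, Cd3e, Igj and Mzb1. In opposite directions, 9 genes rose in the omentum and fell in the mesentery, and 4 did the reverse. The 9 included the neutrophil granule genes Camp, Ltf and Ngp and the cell cycle genes Ube2c and Ccna2. After rescaling to equal sums Ccna2 was no longer past 2-fold in the omentum.

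Several omental groups had no counterpart of the same size in the mesentery at 24 h. The mesothelial genes had a median of -0.0038 there, with summed levels of 1.72 and 1.94 FPKM against 118 and 1063 FPKM in the omentum. Spp1 was at 1.498 and 2.67 FPKM, Arg1 at 1.37 and 3.34 FPKM and Trem2 at 0.813 and 4.49 FPKM in MY naive and MY 24 h. Other genes had the larger log2 difference in the mesentery, such as Saa3 (3.44 against 1.93 in the omentum), Ccl6 (3.00 against 1.29) and Fn1 (2.96 against 1.56). Retnla rose in the mesentery from 23.6 to 221 FPKM (3.17) but was lower in OM 24 h than in OM naive (-0.62). The macrophage identity genes had a mesenteric median of 0.95, and the B cell and natural killer markers of -0.61 and -0.66. The genes of these lists were chosen by the omental minimum, so some were low in the mesentery.

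**Figure D5:**
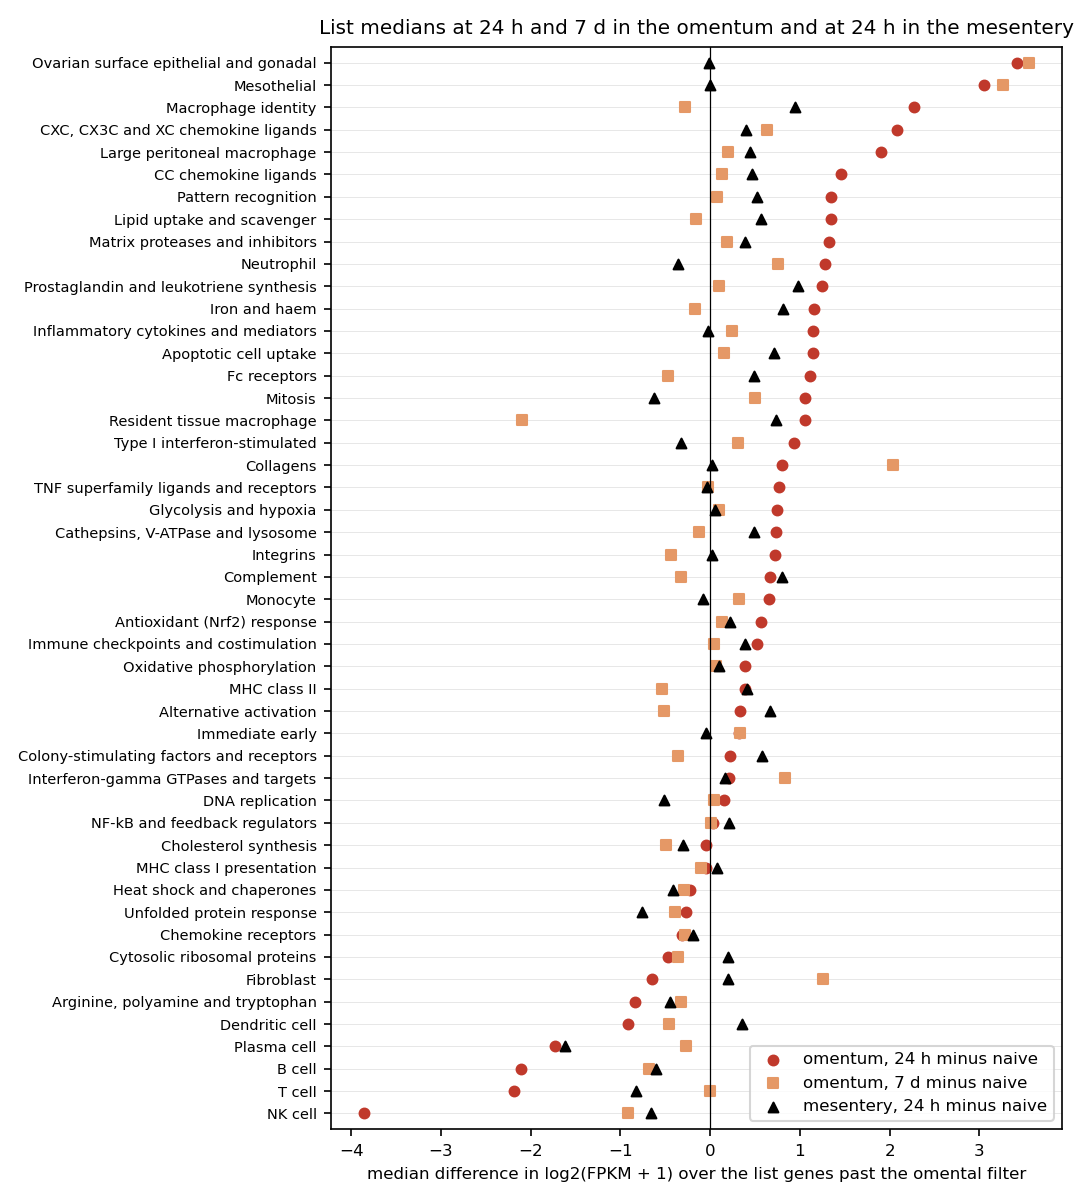
Median log2 difference from the naive library of the same tissue for each list with 6 or more genes, in OM 24 h (circles), OM 7 d (squares) and MY 24 h (triangles), over the genes past the minimum in the omentum at 24 h or naive. OM 24 h and OM 7 d share the naive library. The resident macrophage list stands at 1.05 in OM 24 h and -2.09 in OM 7 d, and the mesothelial list at 3.05 and 3.26.

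By 7 d part of the genes had returned toward the naive level. Against the same naive library, 599 of 7098 genes rose (8.44%) and 169 fell (2.38%) in OM 7 d. Both time points share that library, so their differences are not independent. Of the 901 genes higher at 24 h, 433 were nearer to the naive level at 7 d and 468 nearer to the 24 h level. Of the 496 lower genes, 340 were nearer to the naive level. Ccl8 and Ccl12 stood at 33.1 and 26.3 FPKM in OM 7 d, and Cd79a and Cd3e at 983 and 28.4 FPKM. Apoe stood at 1944 FPKM, C1qa at 259 FPKM and Csf1r at 103 FPKM, while the mesothelial genes stayed high, with Upk3b at 259 and Krt19 at 349 FPKM.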

How the data were processed

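RNA of sorted macrophages was sequenced with 1 library per condition. The authors deposited FPKM per gene symbol. Their notes name FastQC 0.11.4 and STAR 2.4.2a, and the methods of the study name Cufflinks 2.2.1, mm9 and a UCSC annotation. Depth per library in reads was not used, and FPKM allow no count test, interval or p-value.

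Differences in log2(FPKM + 1) between OM 24 h and OM naive were computed with Python 3.11.15, numpy 2.4.6 and pandas 2.3.3 and drawn with matplotlib 3.10.9. The minimum was 10 FPKM in 1 of the 2 libraries, and 2-fold was the threshold of the study's methods. The genes followed and the 54 gene lists were chosen with earlier results of these data known. Named were the 15 largest rises and falls above 0 in both libraries without short RNA genes, the 8 largest FPKM gains and losses, the 3 largest rises and falls past 2-fold of each list, the sort genes, Ccl6 and Ccr1, and the 5 highest genes listed at 0 in the other library. Any other gene was picked with its values in view. Relative depth came from FPKM below 0.1. The counting was run on a copy of OM naive with 200 planted 4-fold changes, and all 200 were counted. That run checked the counting only and says nothing about the spread between libraries.

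Positions came from GENCODE M1 (NCBIM37, which is mm9), and promoter windows from RefSeq (GRCm38.p6), with 5493 of 7128 genes matched by symbol. Alternatives were pseudocounts of 0.1 and 5, other minimums and thresholds, and rescaling by the median ratio or to equal sums. The number of columns not used was 0. Some genes of the lists are not reported here.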

Additional observations from a re-analysis of the deposited data

Results flagged for a closer look

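Among 6208 genes past the minimum in both tissues, some moved in opposite directions at 24 h, each past 2-fold in both. They were 9 that rose in the omentum and 4 that fell there. Over all genes, 12.6% rose and 6.96% fell in the omentum, against 2.98% and 1.80% in the mesentery. With 1 library per condition, the difference between tissues was not tested. Neutrophil granule genes were 4 of the 9. Camp, the cathelicidin, had a log2 difference of 1.55 in the omentum (440.2 to 1294 FPKM) and -1.55 in the mesentery (95.7 to 31.98 FPKM). Ltf, which encodes lactoferrin, had 1.29 and -1.65, Ngp 1.28 and -1.92, and Lcn2, which binds iron carriers of bacteria, 1.11 and -1.32. Genes of dividing cells were among the others, with Ccna2 at 1.13 and -1.20, Ube2c at 1.28 and -1.04 and the histone gene Hist1h1b at 1.21 and -1.49. The sodium pump subunit Atp1b1 had 1.81 and -1.05 and the serine synthesis enzyme Psat1 1.03 and -1.07. Among those on the gene lists, Lcn2 and Ccna2 were no longer past 2-fold in the omentum after rescaling to equal sums.

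The 4 genes that fell in the omentum and rose in the mesentery included the hemoglobin genes. Hba-a2 and Hbb-b1 had -3.97 and -3.92 in the omentum and 3.63 and 2.09 in the mesentery, where they reached 201 and 202 FPKM. Fabp4 had -1.54 in the omentum and 1.07 in the mesentery, where it went from 7.55 to 17.002 FPKM, and the short RNA gene Mir8104 had -2.64 and 4.43.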

How the results depend on the processing

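No paired analysis was possible because only 1 library was made per condition, and no replicate could be left out. Without a replicate spread, a log2 value was taken as the same within 0.58 and a count within 1.5 times. Of 2477 alternative values 2240 were the same, and 98 of 1312 values of named genes moved, 61 of them with a pseudocount of 5, without a change of sign. Rescaling to equal sums shifted all genes by a log2 difference of -0.20, inside the 0.58 allowed. Most log2 values could thus not move under it, and the tally says little about scaling. Rescaling to a sum of 1000000 took 4 of 192 named genes below 2-fold, but these were mostly picked for large differences. Over all genes it took the rises from 901 to 721 and the falls from 496 to 710. Under it 74 genes fell in both tissues, and without Cd74 in the sum, an alternative chosen after seeing the data, 829 fell in the omentum and 62 rose and 85 fell in both tissues. A pseudocount of 5 gave 59 and 24 in both tissues. With 10 FPKM required in both libraries 430 rose and 250 fell, and 56 and 14 did so in both tissues. With 1 FPKM in either, these counts were 1554, 841, 152 and 61, at 1.5-fold 1500, 1157, 360 and 232, and at 4-fold 292, 134, 1 and 0. With a pseudocount of 0.1 the median of the NK cell list was -4.61, of the mast cell list -6.39 and of the erythroid list -6.22, and with 5 they were -2.16, -1.89 and -2.07, and the mesothelial median was 2.44. Rescaling to equal sums gave -4.37 for mast cell and -4.53 for erythroid genes, and -4.43 and -4.60 without Cd74. With 10 FPKM in both, the medians were -2.95 for NK cell, -0.72 for plasma cell, 0.95 for chemokine receptor, 0.49 for large peritoneal macrophage, -0.28 for collagen and -0.35 for integrin genes, and the mast cell median reversed to 0.40 on 1 gene, Hdc. The T cell, eosinophil, endothelial and erythroid lists then had no gene left. With 1 FPKM in either, the medians were -3.17 for NK cell, -1.45 for mast cell, -0.85 for plasma cell, -0.27 for TNF family, -0.91 for endothelial, -1.27 for adipocyte and 0.62 for platelet genes. Fewer or more genes entered under these minimums.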
